A study of Mus musculus with 6 samples.

Results

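The 30 genes described here encode enzymes of glycolysis and the pentose phosphate pathway, the main glucose and lactate transporters, and a pair of kinases. Of the kinases, Pfkfb3 acts on the flow through glycolysis and Pdk1 on the use of its product, pyruvate. The 30 symbols were taken as a list by pathway role, with Aldoc left out by the rule. The rule uses no measured value, though the list was drawn up with earlier results of these data known. All 30 were present among the 55433 genes of the files, and all 30 were among the 17711 genes with enough reads to be tested. RNA sequencing counts came from the whole spinal cord of C57BL/6J mouse embryos at E13.5. Each of the 3 control libraries came from an embryo of genotype NFIA-ff. Each of the 3 libraries of the other group, labelled NFIAcKO, came from an embryo of genotype NFIA-ff with Nestin-cre, meant to remove nuclear factor I A, a transcription factor of neural progenitors and glia. All embryos therefore carried the NFIA-ff allele and only the NFIAcKO group carried the cre, so effects of the cre itself and of the deletion cannot be told apart. Nestin drives the cre in neural progenitors and their descendants, whereas the cord also holds vessels, blood and meninges. The comparison asks how the motor neuron and metabolic programme of the cord differs when NFIA is targeted in the nervous system.

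Glycolysis splits glucose into pyruvate in the cytosol and yields ATP and NADH; lactate dehydrogenase turns pyruvate into lactate and so returns NAD+ to the pathway. The pentose phosphate pathway leaves glycolysis at glucose 6-phosphate: its oxidative branch makes NADPH for lipid synthesis and redox defence, and its non-oxidative branch makes ribose for nucleotides and returns carbon to glycolysis. In the embryonic nervous system dividing progenitors rely strongly on glycolysis, and neurons shift towards oxidative metabolism as they mature.

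Between 43393053 and 51465763 reads per library were counted in genes. The targeted gene went against the label. Nfia was counted at 60.1, 59.1 and 79.2 CPM (read counts scaled to the size of each library) in control replicates 1 to 3 and at 106, 108 and 119 CPM in NFIAcKO replicates 1 to 3, 1.68-fold higher (edgeR adjusted p = 0.0031), so the group is written below as the libraries labelled NFIAcKO. A whole-gene count can hold reads from exons outside the deleted part and does not test the deletion. Replicate 2 of each group had Xist, which is transcribed from the inactive X chromosome of females, at 335 and 201 CPM and no read of the Y-linked Ddx3y, and the other 4 libraries had Ddx3y at 44.5 to 53.6 CPM. The log2 CPM of a gene relative to its mean changed with each doubling of exonic length by -0.117 to -0.019 in the control libraries and by 0.040 to 0.093 in the libraries labelled NFIAcKO, so the members below are given as counted and, where a call changes, with the trend on length and GC content removed. Among markers of cord cells, the summed level of 12 radial glial and astrocyte genes was 2890 to 3289 CPM in the control libraries and 2561 to 2662 CPM in those labelled NFIAcKO. Of the 11 tested, 1 was higher and 7 lower as counted, and 0 and 4 with that trend removed. The summed level of 10 neuronal genes was 9298 to 9539 and 10202 to 10659 CPM, with 4 higher and 1 lower as counted and 4 and 0 with the trend removed. Of all genes tested, 7.86% were higher and 6.08% lower as counted, and 3.82% and 3.87% with the trend removed.

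Hypoxia-inducible factors (HIF) bind the hypoxia response core in many glycolytic promoters. Promoters of the 3 members that fell as counted are shown with the letters of this core marked. Each runs 5′ to 3′ on the gene's own strand from 250 bases before to 50 bases after a RefSeq start (build GRCm38.p6), and capitals mark ACGTG or GCGTG on either strand. Pgk1 lies at chrX:106186850-106187149, Pgam1 at chr19:41911621-41911920 and Ldha at chr7:46845554-46845853, all on the plus strand.
Pgk1: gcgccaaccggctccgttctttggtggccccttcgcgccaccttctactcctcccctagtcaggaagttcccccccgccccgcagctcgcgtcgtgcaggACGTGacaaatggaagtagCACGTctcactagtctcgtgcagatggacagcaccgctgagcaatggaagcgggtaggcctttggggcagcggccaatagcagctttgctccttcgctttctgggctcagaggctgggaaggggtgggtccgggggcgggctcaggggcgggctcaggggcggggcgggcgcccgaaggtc
Pgam1: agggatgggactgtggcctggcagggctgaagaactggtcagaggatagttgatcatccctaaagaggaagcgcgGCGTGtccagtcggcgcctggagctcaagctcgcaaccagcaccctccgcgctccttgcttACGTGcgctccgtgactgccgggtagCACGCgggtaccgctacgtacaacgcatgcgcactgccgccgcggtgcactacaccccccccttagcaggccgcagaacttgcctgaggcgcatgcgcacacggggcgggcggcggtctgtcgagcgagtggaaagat
Ldha: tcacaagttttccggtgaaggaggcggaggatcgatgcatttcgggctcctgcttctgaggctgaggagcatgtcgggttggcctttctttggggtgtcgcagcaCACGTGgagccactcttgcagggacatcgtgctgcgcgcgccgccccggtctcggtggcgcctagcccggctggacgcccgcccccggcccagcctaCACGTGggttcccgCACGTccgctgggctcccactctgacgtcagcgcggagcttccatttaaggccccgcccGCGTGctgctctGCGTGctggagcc
The Pgk1 window holds 2 cores, the Pgam1 window 3 and the Ldha window 7. Among the 7 are the matches of its 2 E-boxes, CACGTG, the palindrome bound by MYC and related factors, in each of which ACGTG is read on both strands. Hk1, the 1 member that rose, has no core in its most 5′ window (chr10:62379859-62380158, minus strand) and 5 in a second one (chr10:62340372-62340671). Among members called in neither fit, the most 5′ windows hold from 0 cores (Eno2, Gpi1 and Tpi1 among them) to 5 (Slc16a1). That of Pfkp holds 4, and those of Gapdh and Pfkm hold 3 each. Whether the cores bear on the levels was not tested. RefSeq windows were matched for 29 of the 30 members, Slc2a3 being the exception, and the most 5′ window of 21 of the 29 (72.4%) holds at least 1 core on either strand, against 43.8% of 27025 genes with a window. ACGTG is present in 37.9% of the member windows and 19.6% of all, GCGTG in 55.2% and 32.5%, CACGTG in 10.3% and 7.24%, and TTGGC, the core letters of NFI sites, in 58.6% and 47.1%. The member windows also hold a median of 21 CG pairs against 7 over all genes, and how far the core's CG letters set its share was not tested. No window of Pgam1 holds TTGGC, the most 5′ window of Hk1 holds none either, and those of Pgk1 and Ldha hold 2 and 1.

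Few members passed the test. As counted, 1 of 30 (3.33%), Hk1, was higher in the libraries labelled NFIAcKO, 3 (10%), Pgk1, Pgam1 and Ldha, were lower, and 26 did not pass an adjusted p of 0.05 in edgeR's quasi-likelihood test. Over all 17711 genes 13.9% passed, 7.86% higher (1392 genes) and 6.08% lower (1076 genes), and with upper quartile scaling 1057 were higher and 1434 lower while the members called were again 1 and 3. The shares of the members called, 1 and 3 genes of 30, lie near that background. The median log2 fold change of the members was -0.0039, against -0.0083 over all genes tested. Of the 30, 13 lay within 0.1 of no change and only Pgk1 lay beyond 0.5. Levels of all 3 libraries labelled NFIAcKO were below all 3 control libraries for 4 members (13.3%; 16.1% of all genes), above them for 3 (10%; 17.3% of all genes), and overlapped for 23. After removal of the trend on length and GC, no member was higher and 4 were lower, against 3.82% higher and 3.87% lower of all genes. These 4 were Pgk1, Ldha, Eno1 and Pdk1, of which Pgk1 and Ldha passed in both fits. The fit with the trend removed was not repeated with a library left out.

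**Figure D1:**
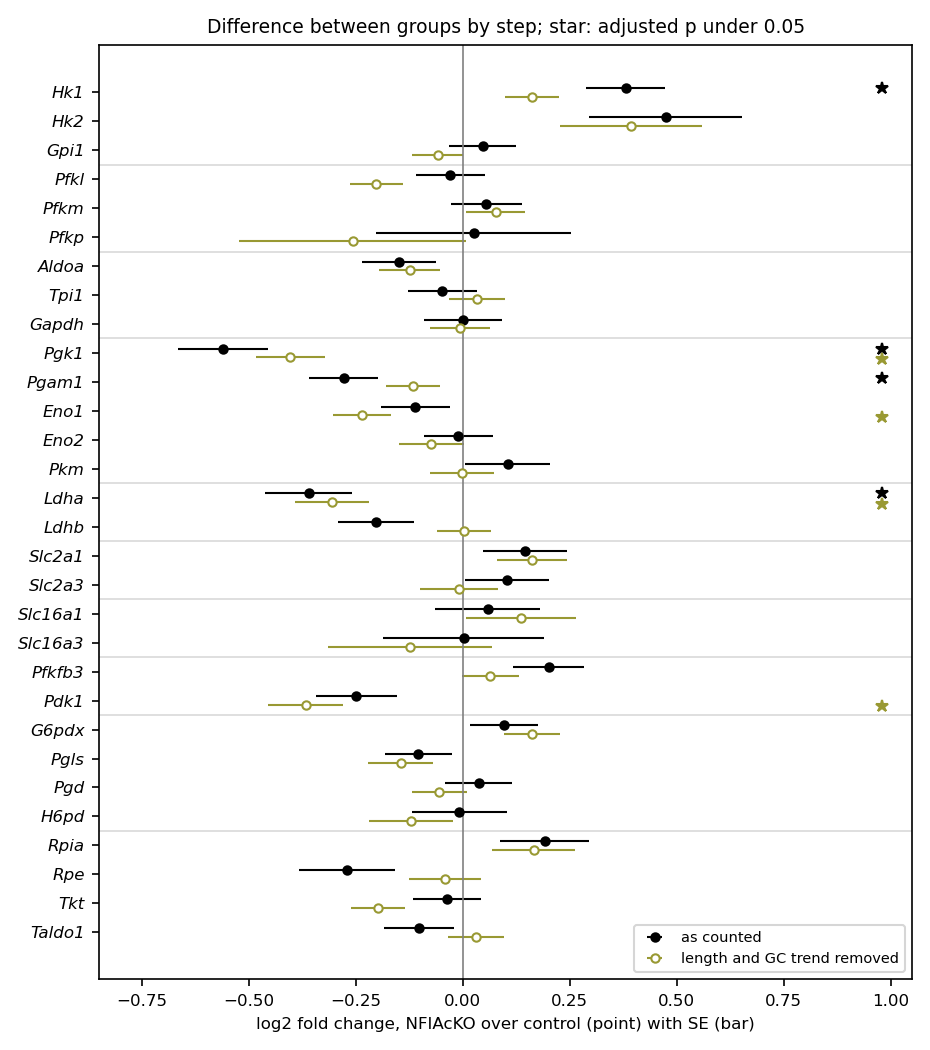
Log2 fold change of each of the 30 genes, libraries labelled NFIAcKO over control (n = 3 each), as points with the standard error as bars, as counted (black) and with the length and GC trend removed (open), in pathway order with grey lines between steps and a star at an edgeR adjusted p under 0.05. Pgk1 and Ldha carry a star in both fits, Hk1 and Pgam1 as counted, and Eno1 and Pdk1 with the trend removed.

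Hexokinases trap glucose in the cell as glucose 6-phosphate, the point at which both pathways begin. Hk1, the mitochondria-bound form typical of brain (chr10:62268855-62379908, minus strand, mm10), was counted at 206, 170 and 219 CPM in control replicates 1 to 3 and at 263, 256 and 256 CPM in NFIAcKO replicates 1 to 3. The 3 libraries labelled NFIAcKO were close together and all above the control libraries, of which replicate 2 was lowest. Hk1 was 1.30-fold higher (log2 fold change 0.38, SE 0.093, edgeR adjusted p = 0.0168). With the length and GC trend removed the difference was 0.16 (SE 0.063, edgeR adjusted p = 0.128) and no longer passed. Its call also depended on single libraries: the edgeR adjusted p was 0.0625 without control replicate 1, and 0.0861, 0.0576 and 0.0736 without NFIAcKO replicates 1, 2 and 3.

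Hk2, the inducible hexokinase of growing and tumour cells, was low, at 7.01, 5.45 and 8.41 CPM in the control libraries and 8.26, 12.1 and 8.58 CPM in those labelled NFIAcKO. The groups overlapped, and NFIAcKO replicate 2 stood highest. Its log2 fold change of 0.47 (SE 0.18) did not pass (edgeR adjusted p = 0.0909), but did in DESeq2 (adjusted p = 0.0453), in edgeR with no filter on low counts (adjusted p = 0.0150) and in edgeR without control replicate 3 (adjusted p = 0.0091). Gpi1, which converts glucose 6-phosphate to fructose 6-phosphate, measured 194 ± 12.1 and 200.01 ± 4.68 CPM (SD, n = 3 each, control first here and below), a log2 difference of 0.046 (SE 0.078).

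Phosphofructokinase commits the sugar to glycolysis and has liver, muscle and platelet subunits. Neither Pfkl (103 ± 4.24 and 101 ± 6.82 CPM) nor Pfkm (101 ± 8.87 and 105 ± 4.65 CPM) differed beyond the spread between libraries as counted. With the length and GC trend removed Pfkl was at -0.20 (SE 0.062, edgeR adjusted p = 0.0603), against -0.029 as counted, and did not pass. Pfkp, the platelet subunit, scattered widely, at 69.6, 84.2 and 55.5 CPM in control and 71.7, 52.8 and 88.6 CPM in the libraries labelled NFIAcKO. Its highest and its lowest value both fell in the libraries labelled NFIAcKO, and its log2 fold change was 0.026 with an SE of 0.23.

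Aldolase A, triose phosphate isomerase and glyceraldehyde 3-phosphate dehydrogenase carry out the steps that split the sugar and first reduce NAD+. Aldoa, encoding the main aldolase, measured 308 ± 19.8 and 277 ± 22.0 CPM (log2 fold change -0.15, SE 0.087, edgeR adjusted p = 0.269). Tpi1, the isomerase that interconverts the products of the split, measured 193 ± 7.73 and 186 ± 12.9 CPM. Gapdh, often used as a reference gene, was counted at 482, 441 and 500 CPM in control and 487, 510 and 427 CPM in the libraries labelled NFIAcKO. The Gapdh group means were nearly equal, and the difference of 0.00028 had an SE of 0.091 (log2).

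The 3 members lower as counted (10% of 30, against 6.08% of all genes), Pgk1, Pgam1 and Ldha, act after Gapdh. Eno1, Eno2, Pkm and Ldhb, which also act there, did not pass as counted. Pgk1, phosphoglycerate kinase, makes the first ATP of the pathway (chrX:106187100-106203699, plus strand, mm10). It was counted at 120.0, 137 and 103 CPM in control replicates 1 to 3 and at 82.6, 88.8 and 72.8 CPM in NFIAcKO replicates 1 to 3. All libraries labelled NFIAcKO were below all control libraries, and within each group replicate 2 was highest and replicate 3 lowest. Pgk1 was 1.47-fold lower (log2 fold change -0.56, SE 0.10, edgeR adjusted p = 0.0070), the largest change among the members as counted. It passed in each of the 6 fits that left out a library, with an edgeR adjusted p of at most 0.0470, and with the trend removed (-0.40, SE 0.080, adjusted p = 0.0193). Pgk1 is X-linked and was highest in each group in the replicate with Xist; each pair of libraries with the same replicate number showed the lower level under NFIAcKO.

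Pgam1, phosphoglycerate mutase, moves the phosphate group between carbons of the Pgk1 product (chr19:41911923-41918660, plus strand, mm10). Control libraries held 60.7, 63.2 and 58.0 CPM and the libraries labelled NFIAcKO 51.3, 51.9 and 46.7 CPM, without overlap. Pgam1 was 1.21-fold lower as counted (log2 fold change -0.28, SE 0.081, edgeR adjusted p = 0.0343). The difference shrank to -0.12 (SE 0.063, edgeR adjusted p = 0.273) with the length and GC trend removed. The as-counted call was lost without control replicate 1 (edgeR adjusted p = 0.103), control replicate 2 (0.0833), or NFIAcKO replicates 1 (0.103), 2 (0.0768) or 3 (0.103), and held without control replicate 3 (0.0035).

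Enolase makes phosphoenolpyruvate. Eno1, the ubiquitous form, was counted at 258, 265 and 272 CPM in control and 244, 264 and 228 CPM in the libraries labelled NFIAcKO. The groups overlapped and the log2 fold change was -0.11 (SE 0.081, edgeR adjusted p = 0.396), but with the trend removed it was -0.24 (SE 0.068, adjusted p = 0.0489) and passed. Eno2, the neuronal form, measured 101 ± 6.06 and 101 ± 5.80 CPM. Pkm, pyruvate kinase, which makes the second ATP, was the member with most reads, at 768, 707 and 854 CPM in control and 812, 934 and 759 CPM in the libraries labelled NFIAcKO. Its log2 difference of 0.10 (SE 0.10) did not pass, and the counts do not separate its M1 and M2 splice forms.

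**Figure D2:**
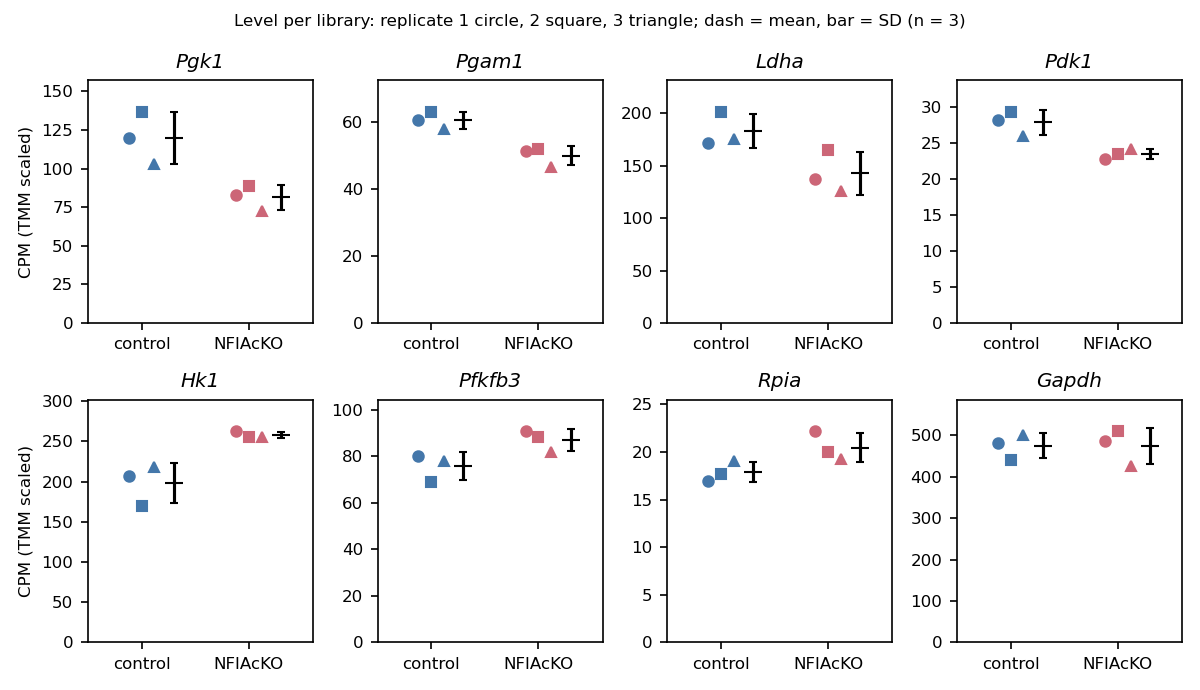
CPM on library sizes scaled by TMM in each library for 8 members, with replicates 1, 2 and 3 as circle, square and triangle and with the mean (dash) and SD (bar, n = 3) beside each group, on axes from 0. All 3 NFIAcKO values lie below the control values for Pgk1, Pgam1, Ldha and Pdk1 and above them for Hk1, Pfkfb3 and Rpia, while those of Gapdh overlap.

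Lactate dehydrogenase is a tetramer of A and B subunits, of which A is linked to lactate production and B to lactate use. Ldha (chr7:46841475-46855627, plus strand, mm10) was counted at 172, 202 and 176 CPM in control replicates 1 to 3 and at 138, 165 and 126 CPM in NFIAcKO replicates 1 to 3. The groups did not overlap, although NFIAcKO replicate 2 came close to control replicate 1. Ldha was 1.28-fold lower (log2 fold change -0.36, SE 0.10, edgeR adjusted p = 0.0305), and with the trend removed it was just inside the threshold (-0.31, SE 0.087, adjusted p = 0.0499). The as-counted edgeR adjusted p was 0.0629 without control replicate 1, 0.0735 without control replicate 2, and 0.144 and 0.125 without NFIAcKO replicates 1 and 3. Ldhb was counted at 290, 319 and 258 CPM in control and 245, 263 and 245 CPM in the libraries labelled NFIAcKO, with an overlap of control replicate 3. Its log2 fold change of -0.20 (SE 0.089, edgeR adjusted p = 0.142) passed without control replicate 3 (adjusted p = 0.0084) and was 0.0025 once the trend was removed.

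None of the 4 transporters passed, and their log2 fold changes ran from 0.0021 to 0.15. Slc2a1, the glucose transporter GLUT1 of vessels and glia, measured 122 ± 10.5 and 135 ± 17.7 CPM (SE of the log2 difference 0.098, edgeR adjusted p = 0.349). Slc2a3, the neuronal glucose transporter GLUT3, measured 44.6 ± 5.70 and 48.0 ± 3.21 CPM. The monocarboxylate transporters, which carry lactate and pyruvate across the membrane, were low: Slc16a1 (MCT1) at 14.0 ± 1.85 and 14.6 ± 1.22 CPM, and Slc16a3 (MCT4) at 7.17 ± 0.753 and 7.18 ± 2.18 CPM.

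Neither kinase of flux control passed as counted. For both the groups did not overlap, as for 17.3% of all genes with NFIAcKO above and 16.1% with NFIAcKO below. Pfkfb3 makes fructose 2,6-bisphosphate, the strongest activator of phosphofructokinase, and was counted at 80.2, 68.9 and 78.2 CPM in control and 90.9, 88.4 and 81.8 CPM in the libraries labelled NFIAcKO. All 3 of the latter were above the control libraries, with a log2 fold change of 0.20 (SE 0.083, edgeR adjusted p = 0.121), or 0.065 (SE 0.066) with the trend removed. Pdk1 inhibits pyruvate dehydrogenase and so limits the conversion of pyruvate to acetyl-CoA. Its levels were 28.1, 29.3 and 26.0 CPM in control and 22.7, 23.4 and 24.1 CPM in the libraries labelled NFIAcKO, all below the control libraries. The log2 fold change of Pdk1 was -0.25 (SE 0.095, edgeR adjusted p = 0.0929) as counted and -0.37 (SE 0.088, adjusted p = 0.0282) with the trend removed, which passed. It also passed as counted without control replicate 3 (edgeR adjusted p = 0.0223).

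No pentose phosphate enzyme passed in either fit. In the oxidative branch, G6pdx, the X-linked glucose 6-phosphate dehydrogenase that makes the first NADPH, measured 61.4 ± 2.33 and 65.7 ± 4.25 CPM (log2 fold change 0.097, SE 0.080, edgeR adjusted p = 0.453). Pgls, the lactonase of the next step, measured 55.5 ± 2.49 and 51.6 ± 1.41 CPM. Pgd, the second NADPH-making dehydrogenase, measured 118 ± 4.04 and 122 ± 8.02 CPM. H6pd, which carries out the first oxidative steps inside the endoplasmic reticulum, measured 11.97 ± 0.816 and 11.9 ± 0.440 CPM. The 4 log2 differences of this branch ran from -0.10 (Pgls) to 0.097 (G6pdx), with an SE of 0.078 to 0.11.

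In the non-oxidative branch, Rpia and Rpe, the isomerase and epimerase that start from ribulose 5-phosphate, had differences of opposite sign, and neither passed. Rpia was counted at 16.9, 17.7 and 19.1 CPM in control and 22.2, 19.95 and 19.3 CPM in the libraries labelled NFIAcKO, which lay above by a narrow margin (log2 fold change 0.19, SE 0.10, edgeR adjusted p = 0.236). Rpe was counted at 39.8, 45.5 and 32.6 CPM in control and 31.7, 35.0 and 31.0 CPM in the libraries labelled NFIAcKO, and overlapped (-0.27, SE 0.11, adjusted p = 0.121). Without control replicate 3, the lowest control library, Rpe passed (edgeR adjusted p = 0.0025), and with the trend removed its difference was -0.042. The enzymes that pass carbon units back to glycolysis did not pass: transketolase, Tkt, at 210 ± 6.10 and 204 ± 13.6 CPM, and transaldolase, Taldo1, at 147 ± 0.966 and 137 ± 12.7 CPM. With the trend removed the log2 difference of Tkt was -0.20 (SE 0.063, edgeR adjusted p = 0.0716), against -0.037 as counted.

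Summed over the 30 genes, the level was 4406, 4308 and 4472 CPM in the control libraries and 4350, 4617 and 4080 CPM in those labelled NFIAcKO. The libraries labelled NFIAcKO included both the highest and the lowest sum, and the means were 4395 ± 82.4 and 4349 ± 269 CPM (SD, n = 3). The sums of the 16 glycolysis enzymes (3443 ± 64.0 and 3389 ± 209 CPM) and of the 8 pentose phosphate enzymes (661 ± 4.89 and 645 ± 39.2 CPM) also overlapped. In whole cord, fewer cells of a type and less RNA per cell cannot be told apart.

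Levels between genes were compared per kilobase of annotated exon. In control libraries Ldhb (184 CPM per kb), Pkm (155), Gapdh (115) and Aldoa (106) stood highest, followed by Tpi1 (70.0) and Taldo1 (67.5), then Ldha (55.3), Pgk1 (53.5) and Eno1 (49.2). The libraries of Gapdh and Aldoa overlapped on this scale, as did those of Ldha and Pgk1. At the low end stood Hk2 (1.17), Slc16a3 (1.35), H6pd (2.29), Slc16a1 (3.17), Rpia (3.34) and Pdk1 (3.57). The order depends on the length used. Per kilobase of 1 transcript, Gapdh (334) and Pkm (319) stood above Ldhb (222) and Aldoa (199). Eno1 (131) then stood above Ldha (104) and Pgk1 (65.7). The transcript was the principal one, or the longest for Pkm and Aldoa, which have none marked as principal.

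**Figure D3:**
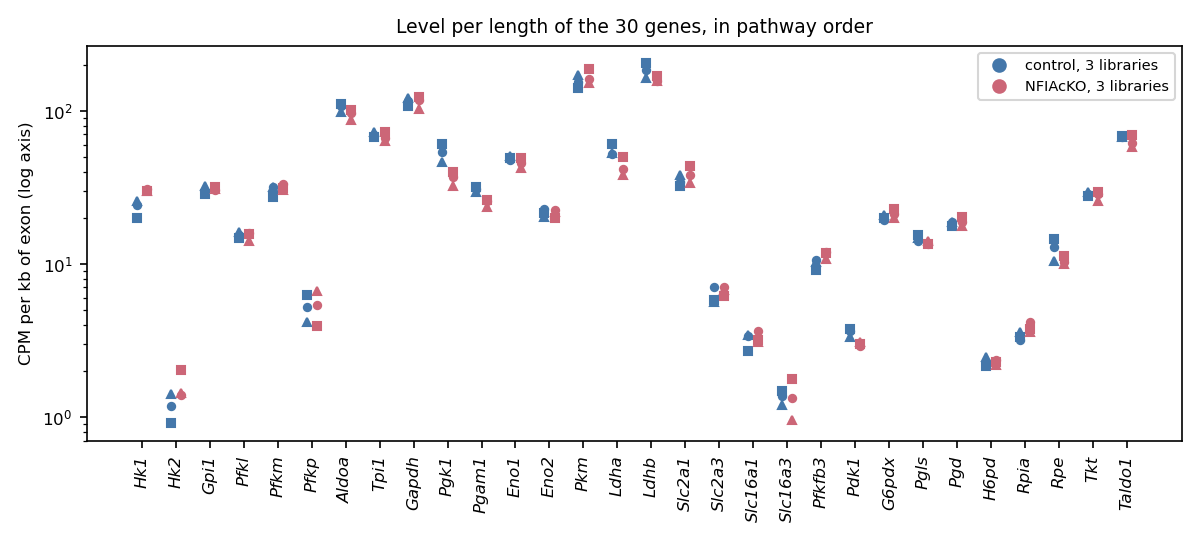
CPM per kilobase of exon (log axis) of the 30 genes in pathway order, 3 control and 3 NFIAcKO libraries each (circle, square and triangle for replicates 1, 2 and 3). Levels span from Hk2 near 1 to Ldhb at 184 in control, and the groups separate visibly for Pgk1 while most other genes overlap.

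Within families, the shares of the isoforms per length overlapped between the groups in all 6 families. Hk1 made up 95.3 ± 0.43% of hexokinase in control and 94.9 ± 1.1% in the libraries labelled NFIAcKO (SD, n = 3). Pfkm held 59.3 ± 2.7% and 60.6 ± 0.98% of phosphofructokinase, Pfkl 30.4 ± 0.81% and 29.2 ± 1.6%, and Pfkp 10.3 ± 2.6% and 10.2 ± 2.6%. Eno1 held 69.6 ± 1.8% and 68.0 ± 2.7% of enolase. The share of Ldha in lactate dehydrogenase was 22.0%, 23.0% and 24.4% in control and 21.1%, 22.9% and 19.5% in the libraries labelled NFIAcKO, so Ldhb was the main subunit in every library. Slc2a1 held 84.9 ± 2.1% and 85.2 ± 2.2% of the glucose transporter pair. Shares depend on the length used: with the principal transcript in place of all exons, that of Ldha was 31.9% and 29.4%. An exact test of 3 libraries against 3 cannot go below p = 0.1, so none is given for shares.

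**Figure D4:**
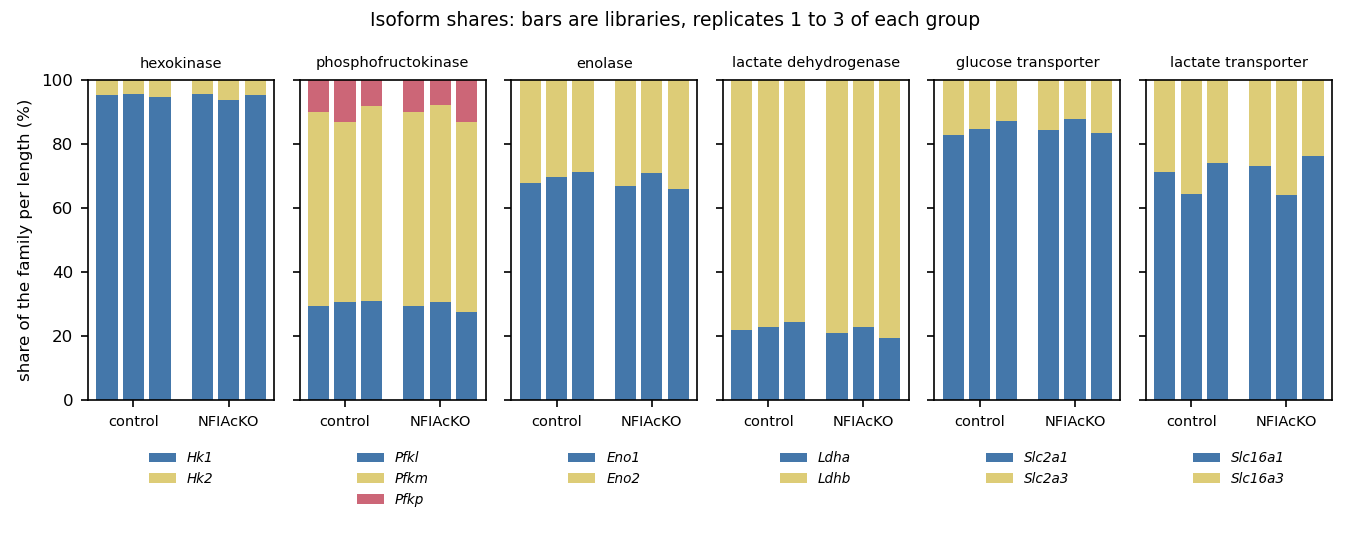
Share (%) of each isoform in the length-scaled level of 6 families, 1 bar per library with replicates 1 to 3 of control on the left and of NFIAcKO on the right of each panel. Hk1 is near 95% of hexokinase and Ldhb over 75% of lactate dehydrogenase in every library, and no share separates the groups.

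The differences between the groups ran with gene length over all genes, and the medians of the members ran the same way. Medians of the log2 fold change over all tested genes were -0.19, -0.074, 0.021 and 0.16 from the shortest to the longest of 4 classes of exonic length with about equal numbers of genes. Those of the 4, 8, 9 and 9 members in these classes were -0.24, -0.076, 0.0021 and 0.037, and with the trend removed -0.057, -0.0042, -0.0070 and -0.058. Pgk1 (2244 bp) and Pgam1 (1982 bp) lie in the shortest class and Hk1 (8532 bp) in the longest, the directions in which all genes ran. Pdk1 (7779 bp) ran against it, and Ldha (3310 bp) fell further than the median of its class. With the trend removed 10 members changed sign, none of them called in either fit.

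**Figure D5:**
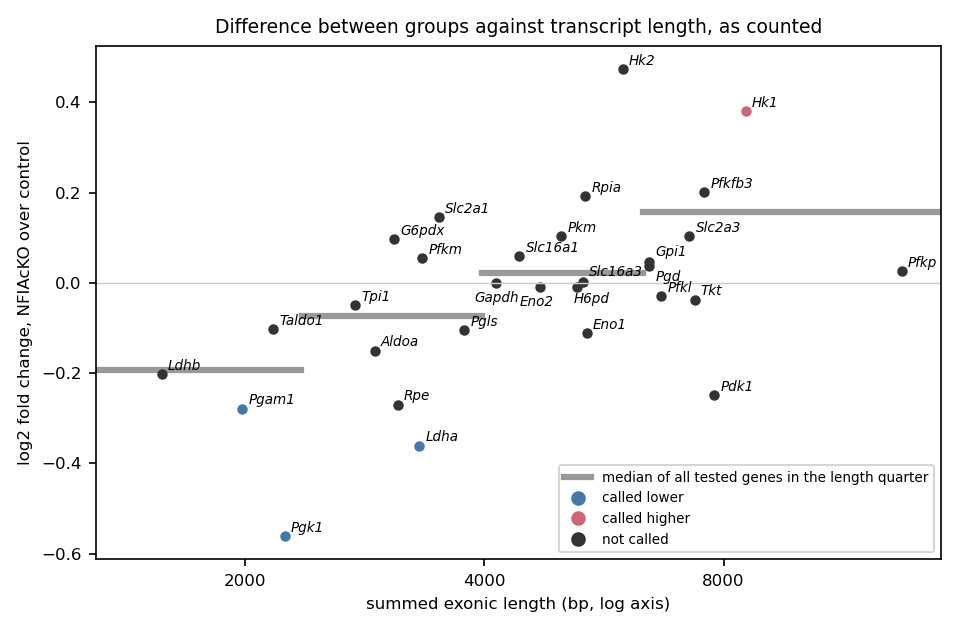
Log2 fold change as counted of the 30 members against summed exonic length (bp, log axis), blue for those called lower, red for the one called higher and black for the rest, with the median of all tested genes in each of 4 length classes as grey bars. The grey medians climb from -0.19 to 0.16, with Pgk1 and Ldha well below the bar of their class and Hk1 above its own.

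Several glycolytic genes have many processed pseudogenes, which can take or block reads. Of the 75-base windows of the transcript, 80.3% of Gapdh, 67.5% of Pgk1, 65.4% of Eno1 and 40.6% of Pgam1 also occur in transcripts of other annotated genes, for Pgk1 in the pseudogenes Pgk1-rs7 and Gm5537 above all. Ldha shares 5.38% and Hk1 none. Reads placed equally well in more than 1 position were listed apart from the gene counts. They made up 9.41 to 10.5% of the reads listed in the control libraries and 8.94 to 9.13% in those labelled NFIAcKO. The levels of Gapdh, Pgk1, Eno1 and Pgam1 may therefore be understated. Whether this gap between the groups bears on their differences was not tested. The counts of the copies were at most 0.0973% of those of Pgk1, 0.227% of Pgam1 and 0.32% of Ldha in any library, and 15.2% of Gapdh. Adding the counts of the copies to each member changed no call, but for Pgk1, Pgam1 and Ldha these counts were too few to alter one. Reads placed in more than 1 position were not added, so their effect on the calls was not tested. Exons of 13 members overlap those of another gene, among them Pgls with Fam129c (20.6% of its exonic bases), Rpe with Kansl1l (17.9%), Pkm with Gm49759 (15.3%) and G6pdx with Ikbkg (13.6%), and counts there are uncertain.

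Other genes of carbohydrate metabolism and its regulation were taken as gene lists, which include the HIF pathway, hypoxia and glucose sensor genes given below. In either direction 17 of 125 tested passed (13.6%, against 13.9% of all genes). Of these, 5 were higher (4.0%, against 7.86% of all genes) and 12 lower (9.6%, against 6.08%). Of 13 other glycolytic enzymes and isoforms none was higher and 1 was lower, Pgam5, a mitochondrial phosphatase of the mutase family (log2 fold change -0.33, SE 0.076, edgeR adjusted p = 0.0144). The median over this list was -0.15. None of 9 further regulators of flux and none of 14 other transporters passed (medians -0.032 and -0.096). Of 11 genes for the entry of pyruvate into mitochondria 3 were lower (27.3%, against 6.08% of all genes) and none higher (median -0.18). Of the 3, Mpc1 (-0.56, SE 0.12, edgeR adjusted p = 0.0118) and Mpc2 (-0.56, SE 0.15, adjusted p = 0.0298) together form the mitochondrial pyruvate carrier. The other was Pcx, pyruvate carboxylase (-0.29, SE 0.083, edgeR adjusted p = 0.0316). In this list 2 were lower with the trend removed and 6 without control replicate 3. None was lower without control replicate 1, NFIAcKO replicate 1 or NFIAcKO replicate 3. Of 13 genes of gluconeogenesis and glycogen, Pgm2l1, which makes glucose 1,6-bisphosphate, was higher (0.46, SE 0.080, edgeR adjusted p = 0.0055) and Slc37a4, the glucose 6-phosphate transporter of the endoplasmic reticulum, lower (-0.54, SE 0.13, adjusted p = 0.0180), with a list median of -0.073.

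Among 8 other genes of the pentose pathway and of ribose use, 1 was lower, Prps1, which makes phosphoribosyl pyrophosphate from ribose 5-phosphate (-0.32, SE 0.084, edgeR adjusted p = 0.0228), and 2 were in the fit with the replicate block (median -0.20). Of 12 makers and users of NADPH outside the pathway, 1 was lower, Aldh1l1, a folate enzyme and astrocyte marker (-0.81, SE 0.086, edgeR adjusted p = 8e-04), and the median was 0.0012. Of 10 genes of the NADH shuttles, 1 was lower, Slc25a11 (-0.24, SE 0.074, edgeR adjusted p = 0.0473), which did not pass with the replicate block (adjusted p = 0.0661), and the median was -0.075. Over these lists and those of regulators below, 9 of the 17 genes also passed with the trend removed; Pgam5, Mpc2, Prps1, Slc25a11, Higd1a, Hif1an, Mlx and Ppargc1a did not. In that fit 2 more passed, both lower, Adpgk (-0.34, edgeR adjusted p = 0.0407), an ADP-dependent glucokinase, and Pck2 (-0.40, adjusted p = 0.0450), the mitochondrial phosphoenolpyruvate carboxykinase, for 11 in all; these were named after their values were seen. Of the 17, 2 passed without any 1 of the 6 libraries, Pgm2l1 and Aldh1l1. Counting only the 17, the number passing was 2 without control replicate 1, 9 without control replicate 2 and 17 without control replicate 3. It was 3, 10 and 3 without NFIAcKO replicates 1, 2 and 3. Genes outside the 17 that passed in those fits are not in these numbers.

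Most regulators of glycolytic genes did not pass, and those that did lay in both directions. Of 22 genes of the HIF pathway and hypoxia response, 2 were higher (9.09%, against 7.86% of all genes) and 3 lower (13.6%, against 6.08%) as counted, 1 and 2 with the trend removed, and 5 lower with the replicate block (median -0.0027). Epas1, which encodes HIF-2α and is strong in endothelium, was higher (log2 fold change 0.64, SE 0.13, edgeR adjusted p = 0.0118), as was Hif1an (0.28, SE 0.089, adjusted p = 0.0474; 0.0519 with the replicate block), named after its value was seen. Vhl, the ubiquitin ligase subunit that removes HIF, was lower (-0.41, SE 0.091, edgeR adjusted p = 0.0124), as were Bnip3l (-0.43, SE 0.10, adjusted p = 0.0160), a mitophagy receptor, and Higd1a (-0.34, SE 0.095, adjusted p = 0.0283). Among 13 glucose sensors and regulators, Mlxip (0.43, SE 0.085, edgeR adjusted p = 0.0081) and Ppargc1a (0.34, SE 0.11, adjusted p = 0.0490) were higher and Mlx, the partner of Mlxip, lower (-0.44, SE 0.13, adjusted p = 0.0341), and the median was 0.074.

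Sums of several other marker lists separated the groups and others overlapped; over all genes 7.86% were higher and 6.08% lower as counted. Endothelial markers summed to 354 to 407 CPM in control and 420 to 455 CPM in the libraries labelled NFIAcKO (4 of 10 higher and 3 lower as counted, 2 and 1 with the trend removed), and microglial markers to 110 to 119 and 82.7 to 93.3 CPM (0 of 9 higher and 4 lower, 0 and 1 with the trend removed; Trem2 had at most 3 counts). Pericyte markers overlapped at 324 to 363 and 347 to 351 CPM (3 of 6 higher and 1 lower, 0 and 0 with the trend removed). Erythroid markers overlapped at 1887 to 2141 and 1674 to 2301 CPM (3 of 11 higher in either fit), as did meningeal and mesenchymal markers at 1388 to 1802 and 1641 to 2252 CPM (1 of 10 lower as counted, 0 with the trend removed). Dorsal root ganglion markers summed to 592 to 607 and 617 to 654 CPM (1 of 9 higher and 1 lower, 0 and 1 with the trend removed). Skeletal muscle markers were near 0, at 4.94 to 8.45 and 4.64 to 8.75 CPM over the whole list. The part of the lower radial glial and higher neuronal sums, or of any of these cell types, in the levels of Pgk1, Ldha, Pgam1 and Hk1 was not tested.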

How the data were processed

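The authors sequenced RNA from the whole spinal cord of 6 embryos, prepared with a stranded mRNA kit, per the labels' protocols, and deposited raw read counts per gene for each library. STAR 2.6.1a, HTSeq, DESeq2 and mm10 are named in the submitters' processing notes, with the annotation release and strand setting not given in the sources used here. Summary lines of the counter (16.9 to 19.4% of the reads listed) were left out of library sizes. Counts were tested with edgeR 4.0.16 in R 4.3.3 (TMM, filterByExpr, robust quasi-likelihood F test, no covariate), with Benjamini-Hochberg adjustment over all 17711 genes and calls at an adjusted p under 0.05. The SE is the size of the log2 fold change divided by the root of F, and CPM use TMM-scaled library sizes. The biological coefficient of variation was 11.5%. Exonic length and GC content came from GENCODE M21 (GRCm38, for 98.8% of tested genes). Their trend was removed per library with natural splines (5 df), fitted where the mean log2 CPM exceeded 1. The edgeR fit without covariate and the DESeq2 fit were tested on simulated data, which held no trend on length or GC. The fits with the trend removed or with a block were not tested in this way.

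Control and NFIAcKO libraries with the same number in the labels deviated together (correlations 0.353, 0.397 and 0.193 over 13122 genes). Correlations between unlike numbers ran from -0.327 to 0.0888. The labels state no pairing, and whether the number stands for one was not tested. The main test has no block, and the replicate block, which takes the number to pair the libraries, is an alternative. Replicates 1 and 2 of both groups share a number in their file names (3910) and replicates 3 another (4087). What these stand for is not stated, and they were also tried as a block. All 30 members are named, and of each other list up to 4 genes by smallest p. The members and lists were chosen with earlier results of these data known.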

Additional observations from a re-analysis of the deposited data

How the results depend on the processing

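Pgk1, Ldha and Pgam1 kept their direction under every setting tried, as did Hk1. Of 450 values of members under 15 settings other than the one reported, 378 kept direction and side of the threshold, 17 lost a call, 10 gained one and 45, none of a called member, changed sign. Calls over all genes were 1392 higher and 1076 lower as reported, of which 56.4% higher; this split was 1057 and 1434 (42.4%) with upper quartile scaling and 676 and 686 (49.6%) with the length and GC trend removed. With that trend removed and the replicate block added, 707 were higher and 792 lower. With the replicate block alone 1353 were higher and 1119 lower, and it changed no member's call. Leaving out 1 library gave 282 to 2703 higher and 139 to 2466 lower calls; dropping control replicate 3 gave the highest numbers, and dropping control replicate 1 (higher) or NFIAcKO replicate 1 (lower) the lowest. Members called were 1 higher and 3 lower as reported, 0 and 4 with the trend removed, with and without the replicate block, and 2 higher with DESeq2 and with no filter. They ran from 0 to 2 higher and 1 to 6 lower with 1 library left out. Dropping control replicate 3 gave 2 and 6, dropping control replicate 2 gave 1 and 1, dropping NFIAcKO replicate 2 gave 0 and 2, and dropping any of the 3 others gave 0 and 1.

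Log2 fold changes that changed sign with the trend removed, and then with the replicate block added, were Gpi1 -0.058 and -0.059, Pfkp -0.26 and -0.25, Tpi1 0.034 and 0.034, Gapdh -0.0070 and -0.0082, Pkm -0.0022 and -0.0055, Ldhb 0.0025 and 0.0035, Slc2a3 -0.0091 and -0.0045, Slc16a3 -0.12 and -0.14, Pgd -0.054 and -0.056, and Taldo1 0.030 and 0.029. Upper quartile scaling turned Pfkp (-0.0098), Gapdh (-0.040), Slc16a3 (-0.042) and Pgd (-0.0024). The replicate block turned Gapdh (-0.0017) and Slc16a3 (-0.030), and the file-name number as a block Gapdh (-0.0023) and Slc16a3 (-0.022). With 1 library left out, those that changed sign ran from -0.055 to 0.039 (Eno2), -0.058 to 0.059 (Gapdh), -0.065 to 0.039 (H6pd), -0.066 to 0.014 (Pfkl), -0.024 to 0.089 (Pfkm), -0.17 to 0.20 (Pfkp), -0.012 to 0.067 (Pgd), -0.056 to 0.12 (Slc16a1), -0.24 to 0.19 (Slc16a3) and -0.072 to 0.0047 (Tkt). The cause of these changes was not tested. Counts that add annotated copies were chosen after seeing the data.

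Counts of calls in the other lists also moved. Those lower among the HIF and hypoxia genes were 3 as reported, 5 with DESeq2 and with either block, and 6 with no filter, and those higher were 2 as reported, 3 with no filter, DESeq2 or the file-name block, and 1 with upper quartile scaling or the trend removed. With 1 library left out they ran from 0 to 6 lower and 0 to 3 higher, with 0 of either without control replicate 1, NFIAcKO replicate 1 or NFIAcKO replicate 3. Of the other pentose and ribose genes 1 was lower as reported and 2 with upper quartile scaling, no filter, DESeq2 or either block. Of the NADH shuttle genes 1 was lower as reported, 2 with upper quartile scaling, DESeq2 or the file-name block, and 0 with no filter. With an SE of 0.078 to 0.23 (log2) for the glycolysis enzymes and 3 libraries a group, a member that missed the threshold is not shown to be equal between the groups.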

Other observations

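In both groups the highest level of 8 of the 30 members, Aldoa, Pgk1, Pgam1, Ldha, Ldhb, Slc16a3, Rpe and Taldo1, was in replicate 2, the library with Xist and without Ddx3y. This is 26.7% of the members, against 15.9% of all 17711 genes tested (2820). These 8 include all 3 members that were lower in the libraries labelled NFIAcKO, and 1 of them, Pgk1, is X-linked. Replicate 2 also had the lowest change of log2 CPM per doubling of exonic length in each group, -0.117 in control and 0.040 in NFIAcKO. The part of this length trend in the pattern was not tested. With 1 such library a group, sex, litter and the library itself cannot be told apart.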
